A study of Homo sapiens with 8 samples.

Results

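The genes that encode the translation initiation factors and the eIF2 kinases were described across 3 groups of Panc1 cells, a line established from a human adenocarcinoma of the pancreatic duct. Genes were chosen by symbol, EIF1 to EIF6 with any suffix and no antisense or pseudogene symbol, and by a mean above 0 log2 CPM over all libraries, which took 50 of the 15176 genes in the table. Log2 CPM is the base-2 logarithm of the read count, with a small count added, scaled by an adjusted library size (CPM). The groups were cells given siRNA against SF3B1 and kept at 1% oxygen (siSF3B1, n = 3 libraries), cells given control siRNA at 1% oxygen (hypoxic siCtrl, n = 3) and cells given control siRNA at 21% oxygen (normoxic siCtrl, n = 2). All 3 groups were transfected with an siRNA, and siSF3B1 cells at 21% oxygen were not analysed here. The siSF3B1 cells spent 8 hours at 1% oxygen per the labels, whose wording does not settle whether the hypoxic siCtrl cells did too. SF3B1 is a subunit of the spliceosome's U2 particle, which recognises the branch point of introns.

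Initiation brings the methionine initiator tRNA, the small ribosomal subunit and the capped mRNA together. eIF2 carries the tRNA as a GTP complex, eIF2B reloads eIF2 with GTP, and stress-activated kinases phosphorylate the eIF2 alpha subunit, which turns eIF2 into an inhibitor of eIF2B and lowers general translation. eIF3 scaffolds the small subunit. eIF4F, made of the cap-binding eIF4E, the helicase eIF4A and the scaffold eIF4G, recruits the mRNA, and the 4E-BP proteins block eIF4E when they are not phosphorylated. Severe or prolonged hypoxia is known to engage both the eIF2 kinase arm and the 4E-BP arm, largely through protein phosphorylation, which RNA sequencing does not measure.

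SF3B1 averaged 5.34 ± 0.14 log2 CPM in siSF3B1 cells, against 8.77 ± 0.084 in hypoxic and 8.87 ± 0.013 in normoxic siCtrl cells (SD), a log2 fold change of -3.42 between the hypoxic groups. The files hold 20496492 to 25257173 reads per library. All 8 ductal epithelial markers checked had values, and their summed level was 8140 to 10900 CPM in siSF3B1, 4910 to 6270 in hypoxic siCtrl and 5270 to 6250 in normoxic siCtrl libraries. Of these markers KRT8, KRT18 and KRT19 were higher in siSF3B1 than in hypoxic siCtrl cells (log2 fold changes of 0.78, 0.58 and 0.83), KRT7 was lower (-1.44, adjusted p = 3.68e-05) and 4 were not called. Of 6 fibroblast markers 3 had values, which summed to 14.9 to 38.3, 24.1 to 55.8 and 17.8 to 41.5 CPM in the same order of groups. Of 6 leukocyte markers only CD68 and ITGAM had values (summed 169 to 231, 125 to 170 and 108 to 152 CPM), and the others, PTPRC and LYZ among them, as well as all 6 acinar and islet markers, were not analysed here. CD68 was higher in siSF3B1 than in hypoxic siCtrl cells (0.44, adjusted p = 0.0303) and ITGAM was lower (-1.01, adjusted p = 0.000635). The part of these marker levels in the results below was not tested. Separate cultures are not mentioned in the labels, and the p-values therefore measure a spread between libraries that may be technical.

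The initiation factor genes differed widely between siSF3B1 and hypoxic siCtrl cells and little between hypoxic and normoxic siCtrl cells. With SF3B1 siRNA, 26 of the 50 rose, 14 fell and 10 were not called, by limma at an adjusted p under 0.05 over all 13112 tested genes. That is 80.0% called, where 66.0% of all tested genes were called (35.0% higher and 30.9% lower). The median size of the log2 fold change was 0.415 for these genes and 0.438 for all genes, and the signed medians were 0.213 and 0.033. Only EIF2AK1, EIF2D, EIF4EBP2 and EIF2B5 changed by at least 1 on the log2 scale, and all 4 fell, while the largest rise was that of EIF1AD, at 0.998. Scaling by plain read totals gave 20 higher and 19 lower, where it called 64.9% of all tested genes, 3551 higher and 4956 lower. It moved the median of all genes to -0.098, so small rises depend on the scaling. In hypoxia, 0 rose and 1 fell, EIF5, or 2.00% of the 50, where 5.65% of all tested genes were called (4.35% higher and 1.30% lower). At an unadjusted p under 0.05, 1 was higher and 5 were lower, or 6 of the 50. Of the 13112 tested genes 2578 passed that threshold, 1374 higher and 1204 lower. Voom on the recovered reads also called 0 of the 50 higher and 1 lower. Fitted with the sets of library numbers as a block, the hypoxia comparison called 1 higher, EIF4A2, and 3 lower, EIF5, EIF6 and EIF2A. That is 8.00% of the 50, where the block called 12.5% of all tested genes. Both comparisons use the same hypoxic siCtrl libraries. Lower RNA per cell and a smaller share of cells with the RNA cannot be told apart in these bulk libraries.

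**Figure D1:**
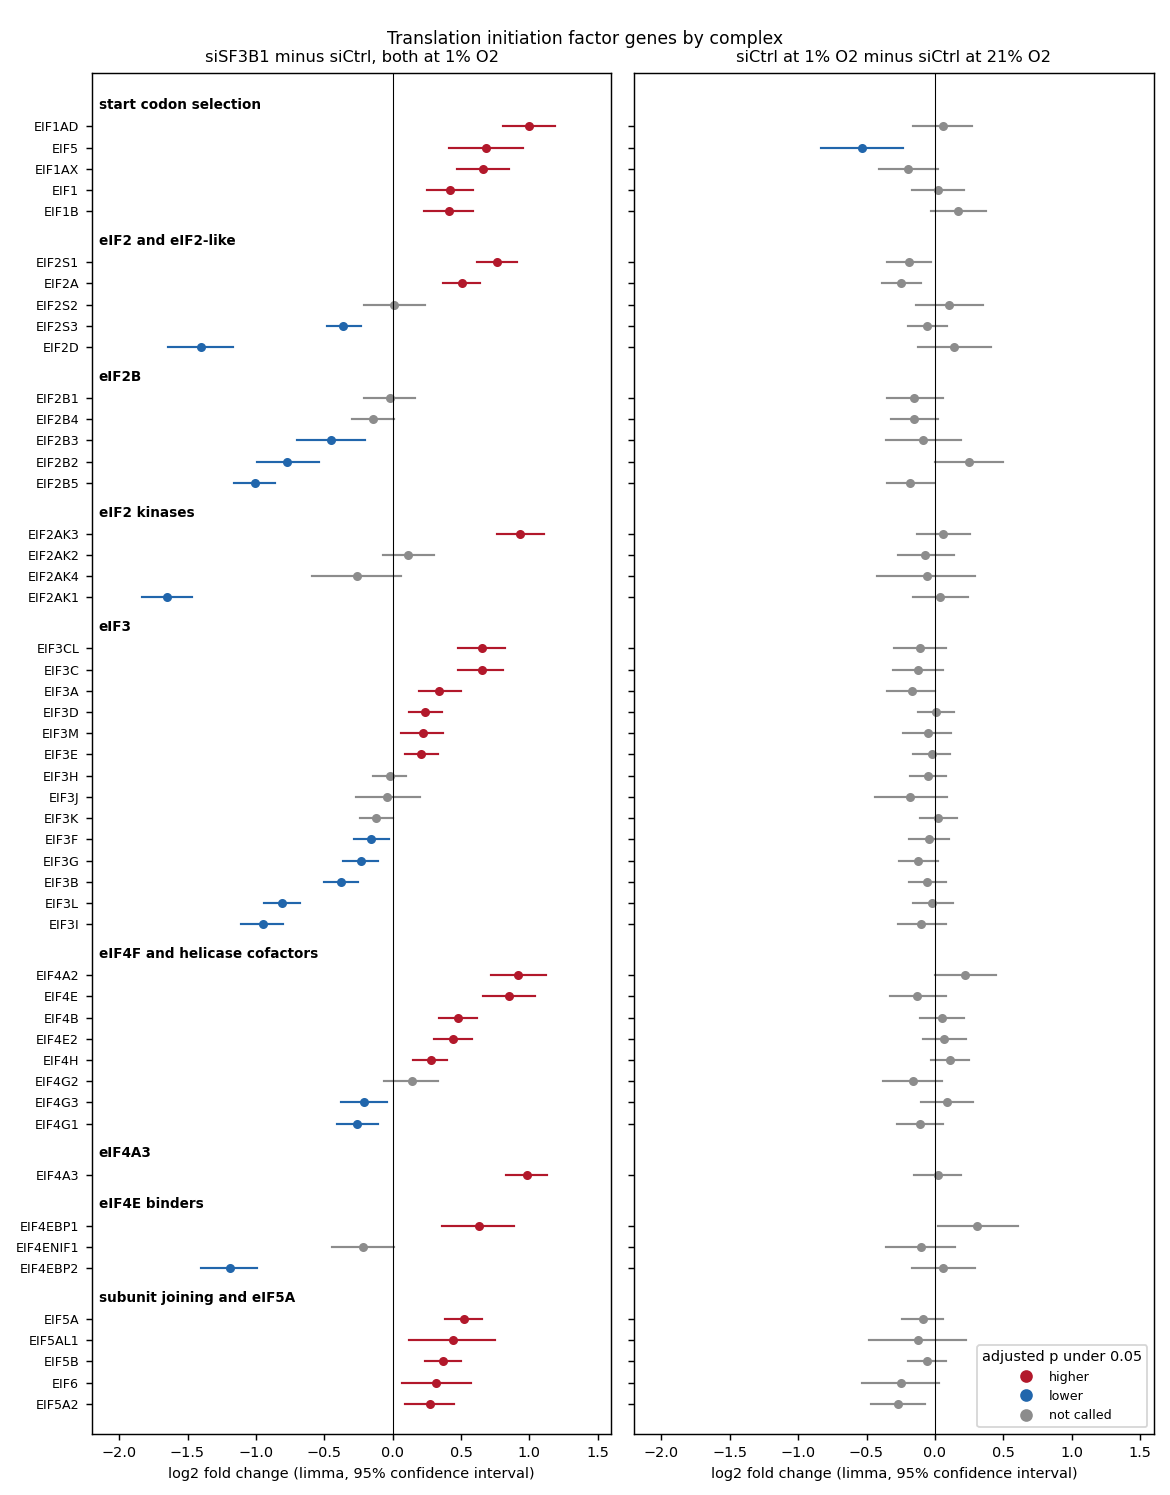
Log2 fold change of the 50 initiation factor genes with 95% confidence intervals from limma, siSF3B1 minus siCtrl at 1% oxygen on the left (n = 3 against 3) and siCtrl at 1% minus siCtrl at 21% oxygen on the right (n = 3 against 2), in blocks by complex. On the left, 26 genes are called higher (red) and 14 lower (blue), with EIF2AK1 lowest at -1.65, and on the right EIF5 alone is called, at -0.53.

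The summed share of reads of these genes differed little between the hypoxic groups. It was 1.46, 1.55 and 1.49% in siSF3B1, 1.47, 1.53 and 1.44% in hypoxic siCtrl and 1.58 and 1.63% in normoxic siCtrl libraries. Per gene and library, between 231 and 94414 reads were counted. EIF4G2, a scaffold related to eIF4G that lacks the eIF4E-binding site, had the highest level per kilobase of exon in all 3 groups, at 9.56, 9.42 and 9.59 log2 CPM per kilobase in siSF3B1, hypoxic siCtrl and normoxic siCtrl cells.

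**Figure D2:**
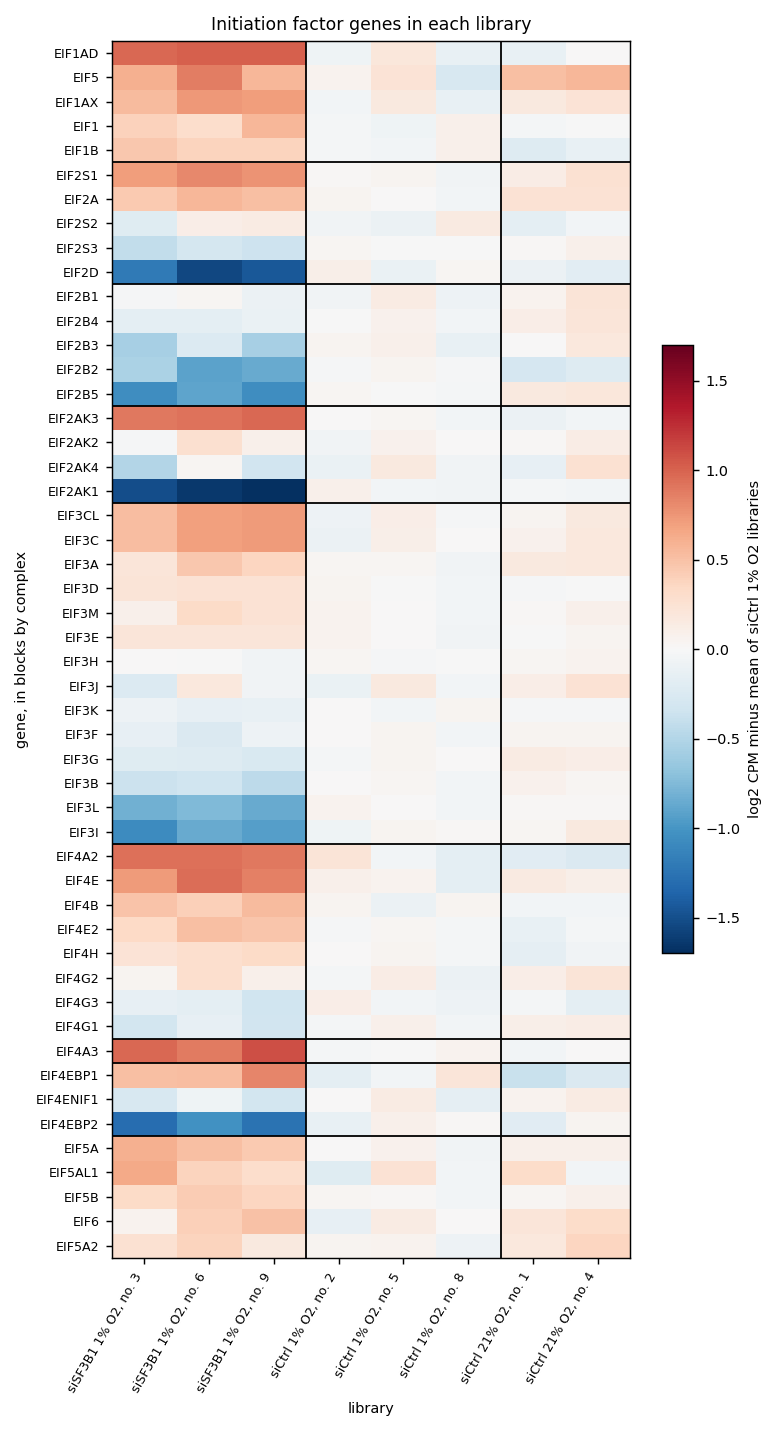
Level of each of the 50 genes in each of the 8 libraries, as log2 CPM minus the mean of the 3 siCtrl libraries at 1% oxygen, in blocks by complex (horizontal lines) and by group (vertical lines). The 3 siSF3B1 columns hold the deep red and deep blue cells, such as EIF1AD and EIF2AK1, and the siCtrl columns stay pale, with EIF5 redder in both 21% oxygen libraries.

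The genes grouped under start codon selection, where EIF1AD is counted by its symbol, all rose with SF3B1 siRNA, 5 of 5. Of all tested genes 35.0% rose. EIF1AX encodes eIF1A, which works with eIF1 in scanning and start site recognition, EIF1 and EIF1B encode closely related eIF1 proteins, EIF5 is the GTPase-activating protein of eIF2, and EIF1AD is a nuclear protein with an eIF1A-like domain. EIF1AD stood at 6.60, 6.64 and 6.65 log2 CPM in siSF3B1 libraries, against 5.56, 5.82 and 5.51 in hypoxic siCtrl and 5.51 and 5.64 in normoxic siCtrl. Every siSF3B1 library lay above every siCtrl library, and the log2 fold change was 1.00 (SE 0.086, limma adjusted p = 4.72e-06). Of its exon bases, 3.34% overlap BANF1 on the other strand. EIF1AX stood at 6.99, 7.19 and 7.16 in siSF3B1, against 6.41, 6.61 and 6.32 in hypoxic siCtrl and 6.61 and 6.68 in normoxic siCtrl, a log2 fold change of 0.66 (SE 0.0857, adjusted p = 7.3e-05) with no overlap between the siSF3B1 and siCtrl libraries. EIF1 and EIF1B rose by less, with log2 fold changes of 0.42 and 0.41.

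EIF5 was the gene of these 50 that the oxygen comparison called. It stood at 8.31, 8.57 and 8.27 log2 CPM in siSF3B1 libraries, at 7.76, 7.93 and 7.43 in hypoxic siCtrl and at 8.21 and 8.26 in normoxic siCtrl. The 3 hypoxic siCtrl libraries were the lowest of the 8. EIF5 fell in hypoxia, with a log2 fold change of -0.53 (SE 0.134, limma adjusted p = 0.0481), and rose with SF3B1 siRNA, 0.68 (SE 0.12, adjusted p = 0.000628). The hypoxia call was lost with median-of-ratios scaling (adjusted p = 0.0511), without the intensity trend (0.116), without siSF3B1 library 9 (0.0671), without hypoxic siCtrl library 2 (0.105) or 8 (0.102), and without normoxic siCtrl library 1 (0.205) or 4 (0.274). The promoter of EIF5 is shown because this gene alone was called in both comparisons. The sequence runs from 150 bases before to 20 bases after the RefSeq start (chr14:103334087-103334256, plus strand, GRCh38.p14), with matches on either strand to the cAMP response core TGACG, the NF-Y box CCAAT and the GC box GGGCGG in capitals.
EIF5: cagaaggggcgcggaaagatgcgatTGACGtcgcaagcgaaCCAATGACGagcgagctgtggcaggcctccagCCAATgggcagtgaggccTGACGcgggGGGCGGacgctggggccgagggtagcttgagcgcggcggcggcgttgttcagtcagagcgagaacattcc

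Among eIF2 and the factors that can also place initiator tRNA, 2 of 5 genes rose and 2 fell with SF3B1 siRNA. That is 80.0% called, where 66.0% of all tested genes were. EIF2S1 encodes eIF2 alpha, the subunit the kinases phosphorylate, and stood at 7.40, 7.51 and 7.46 log2 CPM in siSF3B1, against 6.71, 6.73 and 6.63 in hypoxic siCtrl and 6.81 and 6.95 in normoxic siCtrl. Its siSF3B1 libraries were all above the siCtrl libraries, with a log2 fold change of 0.76 (SE 0.0635, limma adjusted p = 3.69e-06), and 4.82% of its exon bases overlap ATP6V1D, which itself rose by 0.62 (adjusted p = 8.83e-05). EIF2S3, the gamma subunit that binds the tRNA and GTP, fell, with a log2 fold change of -0.36 (adjusted p = 0.000301). EIF2S2, the beta subunit, was not called, at 0.01 (95% CI -0.21 to 0.24).

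EIF2D, which delivers initiator tRNA without GTP and takes part in ribosome recycling, had the largest fall of the eIF2 group. It stood at 3.85, 3.50 and 3.61 log2 CPM in siSF3B1, against 5.15, 4.94 and 5.08 in hypoxic siCtrl and 4.95 and 4.87 in normoxic siCtrl, a 2.64-fold lower level (log2 fold change -1.40, SE 0.106, limma adjusted p = 2.02e-06). No siSF3B1 library came near a siCtrl library. EIF2A, a separate factor that also binds initiator tRNA, rose, at 6.71, 6.83 and 6.77 in siSF3B1, 6.31, 6.27 and 6.21 in hypoxic siCtrl and 6.51 and 6.51 in normoxic siCtrl, with a log2 fold change of 0.51 (SE 0.0602, adjusted p = 4.15e-05). In hypoxia its log2 fold change was -0.25 (adjusted p = 0.0671), and it was called lower with quantile normalization (0.0418), plain read totals (0.0316) and the block (0.0344). Of its exon bases, 6.62% overlap SERP1.

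Of the 5 subunits of eIF2B, 3 fell with SF3B1 siRNA and 0 rose, also at an unadjusted p under 0.05 and by voom. In the fit as reported 66.0% of all tested genes were called, 35.0% higher and 30.9% lower. EIF2B5 encodes the epsilon subunit, which holds the nucleotide exchange activity. It stood at 5.02, 5.18 and 5.02 log2 CPM in siSF3B1, against 6.11, 6.07 and 6.05 in hypoxic siCtrl and 6.25 and 6.27 in normoxic siCtrl, a 2.01-fold lower level (log2 fold change -1.01, SE 0.0674, limma adjusted p = 1.05e-06). EIF2B2, the beta subunit, stood at 4.59, 4.22 and 4.27 in siSF3B1, against 5.11, 5.17 and 5.11 in hypoxic siCtrl and 4.84 and 4.91 in normoxic siCtrl (-0.77, SE 0.102, adjusted p = 8.82e-05). EIF2B3, the gamma subunit that pairs with epsilon, stood at 4.47, 4.80 and 4.47 in siSF3B1, against 5.08, 5.12 and 4.90 in hypoxic siCtrl and 5.03 and 5.21 in normoxic siCtrl (-0.45, SE 0.11, adjusted p = 0.00468). For these 3 genes no siSF3B1 library reached a siCtrl library. EIF2B1, the alpha subunit that joins the regulatory part of the complex, had a log2 fold change of -0.02 (95% CI -0.21 to 0.16), and EIF2B4, the delta subunit, -0.14 (95% CI -0.30 to 0.01), which was called lower with plain read totals (adjusted p = 0.00423) and median-of-ratios scaling (0.0364). EIF2B1 shares 16.2% of its exon bases with DDX55, which was higher with SF3B1 siRNA (0.50, adjusted p = 0.000251), and GTF2H3, which was lower (-0.34, adjusted p = 0.0201).

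The 4 eIF2 kinases went different ways with SF3B1 siRNA, with 1 higher, 1 lower and 2 not called. Among all tested genes 66.0% were called, 35.0% higher and 30.9% lower. EIF2AK1 encodes HRI, a kinase first known from heme sensing in erythroid cells that also responds to mitochondrial stress. It lies at chr7:6022244-6059230 on the minus strand of GRCh38 and has up to 15 exons. Its level was 6.29, 6.16 and 5.99 log2 CPM in siSF3B1, against 7.89, 7.76 and 7.74 in hypoxic siCtrl and 7.77 and 7.75 in normoxic siCtrl. The siSF3B1 libraries lay far below all 5 siCtrl libraries, which were close together. EIF2AK1 was 3.14-fold lower, or -1.65 on the log2 scale (95% CI -1.83 to -1.47; limma adjusted p = 1.9e-07), the largest change of the 50 genes. Its exons share 11.9% of their bases with AIMP2 on the other strand, which had a log2 fold change of -0.62 (adjusted p = 2.63e-05), and the strand setting of the counting is not known from the labels or files.

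EIF2AK3 encodes PERK, the kinase of the endoplasmic reticulum stress response, at chr2:88556741-88627576 on the minus strand. Its level was 4.86, 4.88 and 4.93 log2 CPM in siSF3B1, against 3.96, 3.99 and 3.91 in hypoxic siCtrl and 3.86 and 3.92 in normoxic siCtrl. The siSF3B1 libraries were all higher, and EIF2AK3 rose 1.91-fold (log2 fold change 0.93, SE 0.0782, limma adjusted p = 3.91e-06). EIF2AK2 encodes PKR, which is activated by double-stranded RNA, and stood at 5.85, 6.14 and 5.96 in siSF3B1, 5.81, 5.94 and 5.87 in hypoxic siCtrl and 5.89 and 5.99 in normoxic siCtrl. Its groups overlapped, and the log2 fold change of 0.11 (95% CI -0.07 to 0.30) was not called. EIF2AK4 encodes GCN2, the sensor of uncharged tRNA and stalled ribosomes, and stood at 5.47, 6.0 and 5.64 in siSF3B1, 5.86, 6.13 and 5.91 in hypoxic siCtrl and 5.83 and 6.23 in normoxic siCtrl. The groups overlapped and the log2 fold change was -0.26 (95% CI -0.59 to 0.06, adjusted p = 0.13), but within each set of library numbers the siSF3B1 library was the lower, and the fit with that block called it lower (adjusted p = 0.0019). EIF2AK4 was also called lower with plain read totals (0.0294) and without siSF3B1 library 6 (0.0174).

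In hypoxia 0 of the 4 kinase genes were called, where 5.65% of all tested genes were. Of the 4, 0 had an unadjusted p under 0.05. Their log2 fold changes against normoxic siCtrl were 0.04 for EIF2AK1, 0.06 for EIF2AK3, -0.07 for EIF2AK2 and -0.06 for EIF2AK4. Per kilobase of exon, EIF2AK1 had the highest level of the 4 in every group, at 3.99 ± 0.15 in siSF3B1, 5.64 ± 0.081 in hypoxic siCtrl and 5.60 ± 0.016 in normoxic siCtrl cells (log2 CPM per kilobase, SD). In siCtrl cells the order was EIF2AK1, EIF2AK4, EIF2AK2 and EIF2AK3, with hypoxic means of 5.64, 3.06, 2.51 and 1.68 that were further apart than the spread of libraries. In siSF3B1 cells EIF2AK4, EIF2AK2 and EIF2AK3 stood at 2.80 ± 0.27, 2.63 ± 0.15 and 2.62 ± 0.038 and did not differ beyond that spread. The exon length pools all annotated transcripts, an uncertainty that this spread does not hold. Before division by length, EIF2AK4 and EIF2AK2 averaged 5.97 and 5.87 log2 CPM in hypoxic siCtrl cells, with overlapping libraries. The promoter of EIF2AK3 is shown as that of the kinase gene that rose, from 150 bases before to 20 after its RefSeq start (chr2:88627445-88627614, minus strand, GRCh38.p14), with its CCAAT matches in capitals.
EIF2AK3: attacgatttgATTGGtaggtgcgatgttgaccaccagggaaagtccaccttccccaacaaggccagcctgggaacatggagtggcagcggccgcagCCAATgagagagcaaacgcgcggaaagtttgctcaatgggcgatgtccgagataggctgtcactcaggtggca

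**Figure D3:**
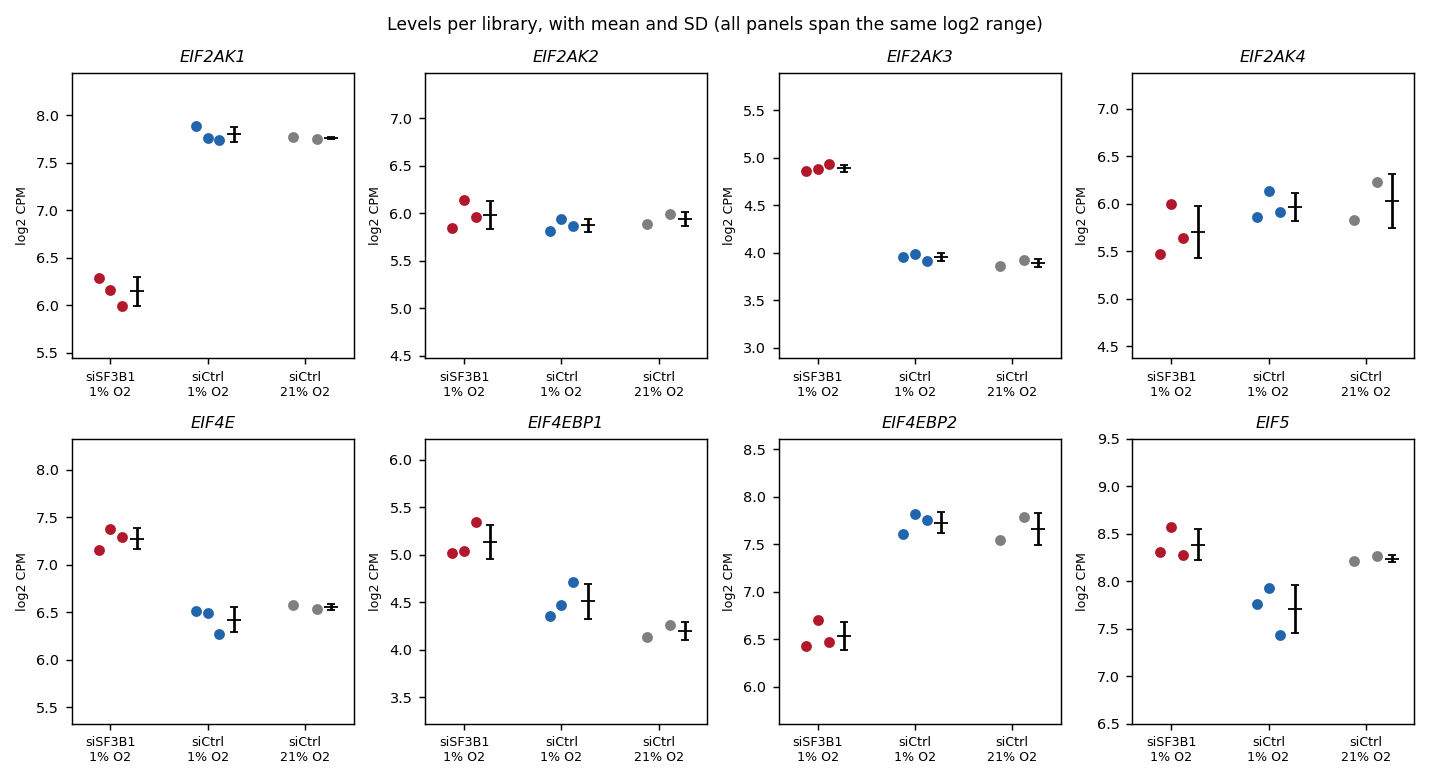
Log2 CPM of 8 genes in every library (points), with mean and SD (bars), for siSF3B1 at 1% oxygen (n = 3), siCtrl at 1% oxygen (n = 3) and siCtrl at 21% oxygen (n = 2). All panels span the same range on the log2 axis, and EIF2AK1 and EIF4EBP2 are lower and EIF2AK3, EIF4E and EIF4EBP1 higher in every siSF3B1 library, while EIF2AK2 and EIF2AK4 overlap.

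The eIF3 genes split, with 6 of 14 higher and 5 lower with SF3B1 siRNA, and 3 higher and 7 lower with plain read totals. The calls are 78.6% and 71.4% of the 14, where 66.0% and 64.9% of all tested genes were called. EIF3I, a WD-repeat subunit, stood at 7.33, 7.54 and 7.46 log2 CPM in siSF3B1, against 8.33, 8.45 and 8.42 in hypoxic siCtrl and 8.43 and 8.56 in normoxic siCtrl. It was 1.94-fold lower (log2 fold change -0.95, SE 0.0704, limma adjusted p = 1.77e-06), with no overlap. EIF3L stood at 6.44, 6.51 and 6.40 in siSF3B1, against 7.32, 7.26 and 7.22 in hypoxic siCtrl and 7.28 and 7.28 in normoxic siCtrl, a log2 fold change of -0.81 (SE 0.0583, adjusted p = 1.5e-06), and shares 10.4% of its exon bases with ANKRD54. EIF3B, the scaffold that holds EIF3I and EIF3G, fell by less (-0.38, adjusted p = 0.000161), as did EIF3G (-0.23, adjusted p = 0.00393), which shares 10.2% of its exon bases with P2RY11. EIF3F also fell (-0.16), a call lost without the intensity trend (adjusted p = 0.071), with only the 2 groups compared (0.0546), and without siSF3B1 library 6 (0.102), hypoxic siCtrl library 2 (0.0788) or 5 (0.109) or normoxic siCtrl library 1 (0.0545) or 4 (0.0544).

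EIF3C, a core subunit, was among the eIF3 genes that rose. It stood at 9.61, 9.78 and 9.80 log2 CPM in siSF3B1, against 8.98, 9.18 and 9.08 in hypoxic siCtrl and 9.15 and 9.26 in normoxic siCtrl, a log2 fold change of 0.65 (SE 0.0745, limma adjusted p = 3.27e-05). EIF3CL is a near-identical copy on the same chromosome, also at 0.65, and reads of the pair can be divided between both, so their separate values are uncertain and they are in effect 1 observation. EIF3A, the largest subunit and a scaffold with EIF3C, stood at 9.62, 9.88 and 9.79 in siSF3B1, 9.45, 9.45 and 9.36 in hypoxic siCtrl and 9.59 and 9.60 in normoxic siCtrl, and rose by 0.34 (SE 0.071, adjusted p = 0.00167), a call lost with quantile normalization (0.139). In hypoxia its log2 fold change of -0.17 had the smallest p of the eIF3 genes and was not called (adjusted p = 0.266). EIF3D, a subunit that can bind the cap, EIF3M and EIF3E rose by 0.24, 0.22 and 0.21, and plain read totals ended all 3 calls (adjusted p of 0.0816, 0.263 and 0.236), as did quantile normalization (0.0601, 0.112 and 0.627). The call for EIF3M was also lost with median-of-ratios scaling (0.0551) and without siSF3B1 library 6 (0.0609) or 9 (0.0592) or hypoxic siCtrl library 8 (0.067). EIF3H, EIF3J and EIF3K were not called, at -0.02, -0.04 and -0.12. EIF3H was called lower with plain read totals (-0.15, adjusted p = 0.0283), and EIF3K was called lower with the block (adjusted p = 0.0311) and with the 3 other scalings (adjusted p of 0.0212 or less). EIF3K had the highest level per kilobase of the 14 in all 3 groups, at 8.97, 9.09 and 9.07 log2 CPM per kilobase in siSF3B1, hypoxic siCtrl and normoxic siCtrl cells, and EIF3I stood at 6.90, 7.85 and 7.95.

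The eIF4F genes and their cofactors rose in 5 of 8 cases and fell in 2 with SF3B1 siRNA. That is 87.5% called, where 66.0% of all tested genes were. EIF4E, the cap-binding protein, stood at 7.16, 7.38 and 7.29 log2 CPM in siSF3B1, against 6.51, 6.49 and 6.27 in hypoxic siCtrl and 6.58 and 6.53 in normoxic siCtrl. All siSF3B1 libraries were above all siCtrl libraries, with a 1.80-fold higher level (log2 fold change 0.85, SE 0.0832, limma adjusted p = 1.1e-05). EIF4A2, an eIF4A helicase, stood at 8.37, 8.38 and 8.33 in siSF3B1, against 7.66, 7.39 and 7.27 in hypoxic siCtrl and 7.25 and 7.19 in normoxic siCtrl (0.92, SE 0.0902, adjusted p = 1.12e-05). Its difference in hypoxia, 0.22 (adjusted p = 0.261), was called in the fit with the block of library numbers (0.0318). EIF4A1, the other cytoplasmic eIF4A gene, was not analysed here. EIF4B, which stimulates the helicase, stood at 9.43, 9.35 and 9.48 in siSF3B1, against 8.99, 8.84 and 8.99 in hypoxic siCtrl and 8.89 and 8.89 in normoxic siCtrl (0.48, SE 0.0628, adjusted p = 7.99e-05).

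The cofactor EIF4H rose by 0.28, but with quantile normalization its difference was not called (adjusted p = 0.645). EIF4E2, a cap-binding protein that takes part in hypoxic translation and in repression, rose by 0.44 (adjusted p = 0.000166) and shares 10.3% of its exon bases with TIGD1. The scaffolds EIF4G1 and EIF4G3 fell by 0.26 and by 0.21, and the call for EIF4G3 was lost without the intensity trend (adjusted p = 0.0654), without siSF3B1 library 9 (0.125) and without hypoxic siCtrl library 2 (0.127) or 5 (0.0534). EIF4G2 had a log2 fold change of 0.14 (95% CI -0.06 to 0.33) and was not called, except with the block (adjusted p = 0.031). EIF4A3, an eIF4A relative that is not an initiation factor but a core protein of the exon junction complex laid down by splicing, stood at 8.26, 8.16 and 8.38 in siSF3B1, against 7.25, 7.27 and 7.34 in hypoxic siCtrl and 7.24 and 7.29 in normoxic siCtrl. It was 1.97-fold higher (log2 fold change 0.98, SE 0.0669, adjusted p = 1.14e-06), with all siSF3B1 libraries above all others.

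The genes of the 4E-BP proteins, which hold eIF4E away from eIF4G, moved in opposite directions. EIF4EBP2, at chr10:70404379-70428618 on the plus strand, stood at 6.43, 6.70 and 6.47 log2 CPM in siSF3B1, against 7.61, 7.82 and 7.75 in hypoxic siCtrl and 7.54 and 7.78 in normoxic siCtrl. It was 2.29-fold lower (log2 fold change -1.19, SE 0.0932, limma adjusted p = 2.48e-06), and the siSF3B1 libraries lay below the others. EIF4EBP1 stood at 5.02, 5.04 and 5.34 in siSF3B1, against 4.35, 4.47 and 4.71 in hypoxic siCtrl and 4.13 and 4.26 in normoxic siCtrl, and rose by 0.63 (SE 0.12, adjusted p = 0.00102). Its hypoxic siCtrl libraries were also all above the normoxic ones, with the highest log2 fold change of the 50 genes in hypoxia, 0.31, which was not called (adjusted p = 0.23). In siSF3B1, hypoxic siCtrl and normoxic siCtrl cells, EIF4EBP2 stood at 3.67, 4.87 and 4.80 log2 CPM per kilobase of exon. EIF4EBP1 stood at 5.11, 4.48 and 4.16, so it was the higher in siSF3B1 cells and EIF4EBP2 in both siCtrl groups. This order depends on the exon lengths used, 1020 bases for EIF4EBP1 and 7257 for EIF4EBP2. Before division by length EIF4EBP2 was the higher in all 3 groups. EIF4ENIF1, which carries eIF4E into the nucleus, was not called, at -0.22 (95% CI -0.44 to 0.01, adjusted p = 0.0843), and was called lower with plain read totals (0.011), median-of-ratios scaling (0.0497) and the block (0.0186) and without siSF3B1 library 6 (0.0333) or hypoxic siCtrl library 8 (0.0409).

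EIF4EBP3 fell below the level threshold and was not tested. It stood at -0.32, -0.17 and 0.25 log2 CPM in siSF3B1, -0.36, -0.65 and -0.99 in hypoxic siCtrl and -1.38 and -1.67 in normoxic siCtrl, from 6 to 21 reads, and 73.4% of its exon bases overlap the read-through gene ANKHD1-EIF4EBP3. EIF2AK3, the lowest gene inside the threshold, averaged 4.89, 3.96 and 3.89 in the same groups. The promoters of EIF4E and EIF4EBP2 are set side by side because the cap-binding gene rose and the gene of its inhibitor fell. Each runs from 150 bases before to 20 after the RefSeq start (EIF4E at chr4:98929114-98929283, minus strand; EIF4EBP2 at chr10:70403995-70404164, plus strand; GRCh38.p14), with matches on either strand to the E-box CACGTG, the cAMP response core TGACG, the NF-Y box CCAAT, the GC box GGGCGG and the ETS site CCGGAAG in capitals.
EIF4E: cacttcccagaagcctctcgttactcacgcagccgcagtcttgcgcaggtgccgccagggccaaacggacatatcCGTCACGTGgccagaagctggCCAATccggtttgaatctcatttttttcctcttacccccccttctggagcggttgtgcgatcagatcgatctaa
EIF4EBP2: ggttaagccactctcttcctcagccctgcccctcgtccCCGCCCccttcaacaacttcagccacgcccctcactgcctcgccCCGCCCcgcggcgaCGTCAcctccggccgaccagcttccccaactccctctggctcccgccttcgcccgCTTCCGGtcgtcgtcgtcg

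The EIF4E sequence holds an E-box, CACGTG, joined to a TGACG match on the other strand, and a CCAAT match. In the EIF4EBP2 sequence there are GGGCGG matches, a TGACG match and a CCGGAAG match, and no CACGTG. These are matches of letters and say nothing of binding.

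The genes of subunit joining and of eIF5A all rose with SF3B1 siRNA, 5 of 5, but 2 of 5 were called higher with plain read totals. Of all tested genes 35.0% rose, where 66.0% were called in either direction. With plain read totals 64.9% of the 13112 tested genes were called, 3551 higher and 4956 lower. EIF5A, a factor that carries the modified amino acid hypusine and helps stalled ribosomes, stood at 9.48, 9.39 and 9.33 log2 CPM in siSF3B1, against 8.88, 8.95 and 8.82 in hypoxic siCtrl and 8.97 and 8.96 in normoxic siCtrl. Its siSF3B1 libraries were all the highest (log2 fold change 0.52, SE 0.0608, limma adjusted p = 3.75e-05). EIF5B, the GTPase that joins the subunits, stood at 8.00, 8.11 and 8.04 in siSF3B1, against 7.71, 7.70 and 7.63 in hypoxic siCtrl and 7.71 and 7.77 in normoxic siCtrl (0.37, SE 0.0565, adjusted p = 0.000231), and shares 14.7% of its exon bases with REV1. EIF5A2 stood at 5.94, 6.06 and 5.85 in siSF3B1, 5.72, 5.74 and 5.59 in hypoxic siCtrl and 5.86 and 6.04 in normoxic siCtrl.

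EIF5A2 rose by 0.27 with SF3B1 siRNA (adjusted p = 0.0139), a call lost with plain read totals (0.147) and without hypoxic siCtrl library 8 (0.0553), and its siSF3B1 and normoxic libraries overlapped. In hypoxia its log2 fold change was -0.27 (adjusted p = 0.132). EIF6, which keeps the subunits apart, rose by 0.32 (adjusted p = 0.028) with overlapping libraries, and the call was lost with quantile normalization (0.147), plain read totals (0.145) and median-of-ratios scaling (0.0507), without the intensity trend (0.0595), and without siSF3B1 library 6 (0.0759) or 9 (0.115) or hypoxic siCtrl library 2 (0.108) or 8 (0.0613). In hypoxia EIF6 had -0.25, called lower only with the block (0.0206). EIF5AL1, an intronless copy of EIF5A with uncertain counts, rose by 0.44 (adjusted p = 0.02), and the call was lost with plain read totals (0.092) and without siSF3B1 library 3 (0.0687), hypoxic siCtrl library 2 (0.0817) or 8 (0.0556).

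Within a library, the difference between a pair of genes does not depend on the library's scaling, and 3 pairs of partners were compared after their values had been seen. A log2 difference between genes also holds their lengths, so only its shift between groups is read, as a description with no test. EIF2AK3 minus EIF2AK1 was -1.43, -1.28 and -1.06 in siSF3B1, -3.93, -3.77 and -3.83 in hypoxic siCtrl and -3.91 and -3.82 in normoxic siCtrl, a 6.0-fold shift toward EIF2AK3 between the hypoxic groups. EIF4E minus EIF4EBP2 was 0.73, 0.69 and 0.82 in siSF3B1, -1.10, -1.33 and -1.48 in hypoxic siCtrl and -0.97 and -1.26 in normoxic siCtrl, a 4.13-fold shift toward EIF4E. EIF2S1, the substrate subunit, minus EIF2B5 was 2.37, 2.33 and 2.44 in siSF3B1, 0.60, 0.66 and 0.58 in hypoxic siCtrl and 0.56 and 0.68 in normoxic siCtrl, a 3.41-fold shift toward EIF2S1. For all 3 pairs the siSF3B1 libraries stood apart, and the hypoxic and normoxic siCtrl libraries overlapped.

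**Figure D4:**
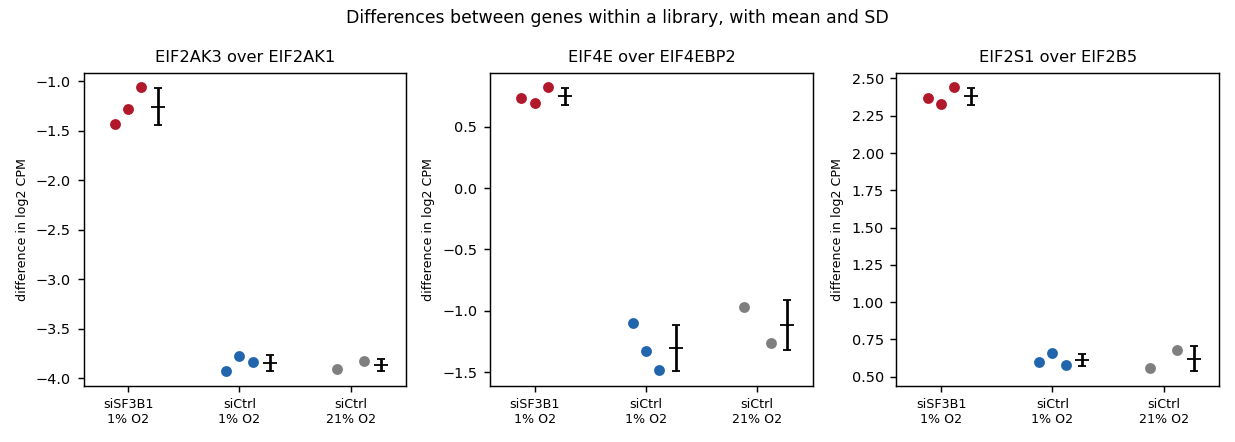
Difference in log2 CPM between 2 genes of the same library (points), with mean and SD (bars), for siSF3B1 at 1% oxygen (n = 3), siCtrl at 1% oxygen (n = 3) and siCtrl at 21% oxygen (n = 2). In each of the 3 panels the siSF3B1 libraries lie above all siCtrl libraries, with means of -1.26, 0.74 and 2.38 against -3.84, -1.30 and 0.61 in hypoxic siCtrl libraries.

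RefSeq start windows, 250 bases before to 50 after the start in GRCh38.p14, matched 41 of the 50 genes. A C at the start followed by at least 4 C or T, the letters of a terminal oligopyrimidine start that is known from mRNAs of the translation machinery under mTOR and LARP1 control, stood in 9 of the 41 windows, or 22.0%, and in 5.37% of the windows of 10399 tested genes. Of these 9 genes 5 rose with SF3B1 siRNA (EIF2A, EIF3D, EIF3M, EIF4A2 and EIF4B), 3 fell (EIF2D, EIF2S3 and EIF3F) and EIF3K was not called. Of the 50 genes 80.0% were called, and of all tested genes 66.0%. The calls for EIF3D, EIF3M and EIF3F were lost in at least 1 alternative. All 9 starts are shown because these 9 genes share a pyrimidine start. Each sequence holds 15 bases before the start and 15 from it, with the pyrimidine run in capitals. The strands are minus for EIF2D and EIF3D and plus for the other genes.
EIF2A at chr3:150546772-150546801: tcacccgagcggtttCTCTTTCCgggacaa
EIF2D at chr1:206612451-206612480: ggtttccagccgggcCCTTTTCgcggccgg
EIF2S3 at chrX:24054941-24054970: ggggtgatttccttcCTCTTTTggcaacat
EIF3D at chr22:36529152-36529181: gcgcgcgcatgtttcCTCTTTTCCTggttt
EIF3F at chr11:7987322-7987351: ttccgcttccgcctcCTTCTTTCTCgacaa
EIF3K at chr19:38619173-38619202: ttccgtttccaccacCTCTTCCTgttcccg
EIF3M at chr11:32583816-32583845: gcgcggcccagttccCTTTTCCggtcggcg
EIF4A2 at chr3:186783562-186783591: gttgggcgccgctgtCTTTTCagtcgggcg
EIF4B at chr12:53006441-53006470: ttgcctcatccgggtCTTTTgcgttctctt

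Both strands of the windows were also searched for short motifs, whose shares are descriptions without a test. ACGTG, the core of the hypoxia response element, was in 46.3% of the 41 windows and 27.1% of the windows of tested genes, and CACGTG, which contains ACGTG on both strands, in 26.8% and 10.3%. CCAAT was in 41.5% and 36.6%, TGACG in 39.0% and 34.7%, CCGGAAG in 26.8% and 19.7% and GGGCGG in 65.9% and 71.0%. TGATGNAA, the ATF4 and C/EBP composite, and TTTCCCGC, an E2F site, were in 0 of the 41 windows, and in 1.54% and 2.62% of those of tested genes. Of the genes with ACGTG, 12 of 22 higher and 5 of 11 lower genes with a window held it. The median exon number was 9.5 in genes that rose and 12.5 in those that fell, with a Spearman rho of -0.233 across the 50 genes between exon number and log2 fold change, which are not independent points.

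Regulators of eIF2 phosphorylation that are not initiation factors were also mixed, with 5 of 12 higher and 3 lower with SF3B1 siRNA. That is 66.7% called, where 66.0% of all tested genes were. GCN1, the ribosome-bound activator of GCN2, fell, at 8.00, 8.19 and 8.14 log2 CPM in siSF3B1, 8.80, 8.78 and 8.81 in hypoxic siCtrl and 8.66 and 8.66 in normoxic siCtrl (log2 fold change -0.69, limma adjusted p = 5.45e-06). DELE1, which relays mitochondrial stress to HRI, fell by 0.40 (adjusted p = 0.000245). PPP1CC, a catalytic subunit of the phosphatase that reverses the mark, rose by 0.54 (adjusted p = 4.74e-05), and TARBP2, a double-stranded RNA-binding protein that inhibits PKR, by 0.55 (adjusted p = 0.000119). In hypoxia 0 of the 12 were called, where 5.65% of all tested genes were, and 1 had an unadjusted p under 0.05. The fit with the block called 1 higher, PPP1CB (0.22, adjusted p = 0.0186), or 8.33%, where it called 12.5% of all tested genes. In the fit as reported, the largest differences were 0.27 for PPP1CB (adjusted p = 0.0839) and 0.22 for PPP1R15B (adjusted p = 0.267).

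Of 20 partners at the cap and the poly(A) tail, 8 were higher and 8 lower with SF3B1 siRNA. The same fit called 66.0% of all tested genes, 35.0% higher and 30.9% lower. Plain read totals gave 3 higher and 9 lower of the 20, and 3551 higher and 4956 lower among all tested genes. PDCD4, an inhibitor of eIF4A, stood at 5.29, 5.23 and 5.28 log2 CPM in siSF3B1, against 4.0, 3.85 and 3.91 in hypoxic siCtrl and 3.96 and 3.69 in normoxic siCtrl, and rose 2.55-fold (log2 fold change 1.35, limma adjusted p = 1.19e-06). MKNK2, a kinase that phosphorylates eIF4E, stood at 6.56, 5.54 and 6.58 in siSF3B1, against 7.94, 7.59 and 8.38 in hypoxic siCtrl and 6.92 and 6.84 in normoxic siCtrl. It fell 3.34-fold with SF3B1 siRNA (-1.74, adjusted p = 0.000224), and in hypoxia its log2 fold change of 1.09 was not called (adjusted p = 0.0638) although all hypoxic libraries were above both normoxic ones. DHX29, a helicase for structured leaders, fell by 0.61, and PAIP1, a partner of the poly(A)-binding protein, rose by 0.41. In hypoxia 0 of the 20 were called, where 5.65% of all tested genes were, with 2 higher and 4 lower at an unadjusted p under 0.05. The fit with the block called 2 higher, MKNK2 (0.90, adjusted p = 0.000853) and PAIP2 (0.31, adjusted p = 0.0168). That is 10.0% of the 20, where the block called 12.5% of all tested genes. In the fit as reported, the next largest hypoxia difference after MKNK2 was 0.44 for PAIP2B (adjusted p = 0.363).

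Factors of reinitiation, recycling and hypusine formation were higher in 6 of 10 cases and lower in 2 with SF3B1 siRNA. That is 80.0% called, where 66.0% of all tested genes were. MCTS1 and DENR form a heterodimer that resembles parts of EIF2D, and both rose, by 0.74 (limma adjusted p = 2.16e-06) and 0.41 (adjusted p = 0.000273). MCTS1 stood at 7.0, 7.04 and 7.04 log2 CPM in siSF3B1, against 6.30, 6.29 and 6.27 in hypoxic siCtrl and 6.27 and 6.37 in normoxic siCtrl, so the siSF3B1 libraries were all higher. DOHH, the enzyme of the last step of hypusine formation on eIF5A, rose by 1.09 (adjusted p = 6.44e-05), and METAP2, the methionine aminopeptidase that binds eIF2, by 0.38 (adjusted p = 0.0012). In hypoxia 0 of the 10 were called, where 5.65% of all tested genes were, and 1 had an unadjusted p under 0.05. The largest differences there were -0.34 for DOHH and -0.22 for METAP2.

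Of 20 targets of the ATF4 branch, which lies downstream of eIF2 phosphorylation, 5 were called higher and 4 lower with SF3B1 siRNA. That is 45.0%, where 66.0% of all tested genes were called. The block called 9 higher and 6 lower. The block's calls are 75.0% of the 20, where it called 73.7% of all tested genes. ATF5 fell by 1.45 (limma adjusted p = 1.69e-06) and CTH by 0.86 (adjusted p = 0.00353), while NUPR1 rose by 1.94 (adjusted p = 5.02e-05) and SLC3A2 by 0.46 (adjusted p = 0.00551). In hypoxia the block called 8 of 20 higher and 1 lower, where it called 12.5% of all tested genes. In the fit as reported 3 of 20 rose and 0 fell, where 5.65% of all tested genes were called (4.35% higher and 1.30% lower). The 3 were VLDLR (log2 fold change 2.68, adjusted p = 0.000195) and STC2 (2.09, adjusted p = 6.48e-05), which are also known as HIF targets, and SLC7A5 (0.48, adjusted p = 0.0167), a call lost without the intensity trend and without hypoxic siCtrl library 2 or 8 or either normoxic library (adjusted p up to 0.163). ATF4 itself stood at 7.72, 7.72 and 8.38 log2 CPM in siSF3B1, 7.63, 7.40 and 8.35 in hypoxic siCtrl and 7.22 and 7.09 in normoxic siCtrl. The group differences of 0.14 with siRNA and 0.64 in hypoxia were not called (adjusted p of 0.604 and 0.209). In both hypoxic groups the library of the last number set, 9 and 8, was the highest for ATF4. The same held for every other target of the list except ATF5, CTH and VLDLR. No normoxic library of that set was analysed. The median log2 fold change of the 20 targets in hypoxia was 0.529, and 0.253 with the block. The part of that set in these differences was not tested.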

How the data were processed

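Per the labels' protocols, RNA of 8 Panc1 samples was depleted of ribosomal RNA and made into libraries with a stranded mRNA kit. The submitters' processing notes name edgeR 3.24.3, featureCounts, Subread 1.5.0, STAR 2.7.0a, Trimmomatic 0.35, SAMtools 1.9 and GRCh38.p13, with no roles. The authors deposited log2 CPM values, which were used as deposited. Their steps gave whole reads for 100% of values within 0.01 read. The adjusted library sizes in these values were 0.927 to 0.949 times the summed reads in siSF3B1 libraries. In siCtrl libraries they were 1.02 to 1.06 times the summed reads, and plain read totals leave this adjustment out.

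All 8 libraries entered 1 limma 3.58.1 fit (R 4.3.3) with a mean for each group, 5 residual degrees of freedom and an intensity trend, for 13112 genes with a mean log2 CPM above 0 (2064 left out). Tests were two-sided, with Benjamini-Hochberg adjustment over all tested genes. The fit was tested on simulated data. In the 3 sets of library numbers, 1 to 3, 4 to 6 and 7 to 9 (7 was not analysed here), libraries of 1 set in different groups deviated together (r 0.344 to 0.43 in 7 pairs). What the numbers stand for is not in the labels, so the block is an alternative. Other alternatives were filters, scalings, voom, no trend, only 2 groups and leaving out each library, 17 in all.

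Members and lists were chosen with earlier results of these data known. Per complex, values in every library were given for up to 3 genes with the smallest p for siRNA and 1 for hypoxia, and for all kinases and 4E-BP genes; per partner list, up to 4 called genes were named by smallest p, or 2 by size. GENCODE v29 gave positions and exon overlaps (GRCh38), and RefSeq gave sequences (GRCh38.p14).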

Additional observations from a re-analysis of the deposited data

How the results depend on the processing

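With SF3B1 siRNA, 40 genes were called (26 higher and 14 lower), and leaving out 1 library at a time gave 36 to 39 (22 to 26 higher and 12 to 15 lower). Of these 40 calls, 30 held in all 17 alternatives and 10 were lost in at least 1: EIF4G3, EIF5AL1, EIF3A, EIF3F, EIF3M, EIF6, EIF3D, EIF5A2, EIF4H and EIF3E. The replicate block of library-number sets gave 27 higher and 17 lower. In hypoxia the count of 1 became 2 with quantile normalization and with plain read totals (both lower), 0 with median-of-ratios scaling and with no trend, 0 to 1 without 1 library, and 4 with the block (1 higher and 3 lower). The cause was not tested.

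Of the 50 genes, 12 turned sign under at least 1 alternative in hypoxia and 6 with siRNA, and 0 of them were called, in the fit as reported or where the sign turned. In hypoxia they included EIF4A3 (-0.016 with plain totals, -0.023 with the block and -0.0074 to 0.042 without 1 library), EIF2AK1 (-0.0042 to 0.069), EIF2AK4 (-0.26 to 0.13) and EIF4EBP2 (-0.058 to 0.18). With siRNA they were EIF2S2 (-0.13 with quantile normalization, -0.12 with plain totals, -0.029 with median-of-ratios scaling and -0.049 to 0.12 without 1 library), EIF4G2 (-0.15 with quantile normalization), EIF2AK2 (-0.017 with plain totals), EIF2B1 (-0.066 to 0.049), EIF3J (-0.15 to 0.057) and EIF3H (-0.034 to 0.0017). The cause was not tested. Each gene had at least 231 reads in every library, and the 2 normoxic libraries limit the precision of the hypoxia comparison.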

Other observations

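EIF3J-DT and EIF2AK3-DT, noncoding genes that start beside EIF3J and EIF2AK3 and were left out as no initiation factors, had values of their own. EIF3J-DT stood at 1.19, 1.47 and 1.52 log2 CPM in siSF3B1, against 2.79, 2.84 and 2.83 in hypoxic siCtrl and 2.47 and 2.36 in normoxic siCtrl libraries, from 46 to 168 reads. It was lower with SF3B1 siRNA (log2 fold change -1.42, SE 0.139, limma adjusted p = 1.09e-05), while EIF3J was not called, at -0.04. EIF2AK3-DT, at 1 to 13 reads, was below the level tested.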
